A study of Mus musculus with 18 samples.

Results

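*Chst8* and *Ror1* were 2 of the 18,193 genes measured on expression arrays of mouse hepatoma cells, and both had lower signals in wild-type cells given a ligand of the aryl hydrocarbon receptor (AHR). They were selected on that lower signal with ligand in wild-type cells, so those values are given below as a description, without a test. Every probe set annotated to 1 of these symbols and to no other was taken, which gave 4 of 45037 probe sets, 1 for *Chst8* and 3 for *Ror1*. A probe set is a group of short probes on the array that reads 1 transcript. The questions that the rule did not decide were whether either gene moved with ligand in cells whose receptor cannot bind DNA and what genes of related function did.

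The 18 arrays held 6 groups of 3 biological replicates. Wild-type cells were Hepa-1c1c7, a line from a mouse liver tumor whose strain the labels give as C57BL/6. The *c*35 cells are a single derivative line of Hepa-1c1c7 whose AHR carries a missense mutation, binds ligand but cannot bind DNA, so the mutation cannot be told apart from any other difference between the lines. An expression array does not read that mutation. Each line received DMSO alone (naive cells), TCDD (2,3,7,8-tetrachlorodibenzo-*p*-dioxin) at 5 nM or BaP (benzo[*a*]pyrene) at 5 µM, both dissolved in DMSO, for 8 hr. The labels of the wild-type TCDD arrays give no dose, and the dose is that of the study's methods. Values are log2 signals, on which 1 unit is a 2-fold difference. The median probe set had a mean log2 signal of 5.66, and 10% of probe sets lay below 3.08.

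The AHR is a transcription factor believed to sit in the cytosol until a ligand such as a dioxin or a polycyclic hydrocarbon binds it. It then enters the nucleus, pairs with ARNT and binds DNA at sites with the core GCGTG. In liver cells it is best known for switching on genes of xenobiotic metabolism. The study that made these arrays also reported the receptor bound at many promoters in naive wild-type cells. *Chst8* encodes a Golgi enzyme that adds sulfate to the N-acetylgalactosamine at the end of certain glycans, a tag best known from pituitary glycoprotein hormones such as lutropin. *Ror1* encodes a cell surface receptor of the tyrosine kinase family that binds WNT5A. ROR1 is abundant in the embryo, scarce in most adult tissues and present again in several human cancers.

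Both promoters are shown because the core of the AHR site is short enough to be read by eye. They are the RefSeq sequences of mouse build GRCm38.p6 from 250 bases before to 50 bases after the annotated start, 300 bases in all, read 5′ to 3′ on the strand of the gene. *Chst8* lies on the minus strand of chromosome 7 (34674468 to 34812711) and its window is chr7:34812662-34812961. *Ror1* lies on the plus strand of chromosome 4 (100095791 to 100444806) and its window is chr4:100095541-100095840. Capitals mark GCGTG.
Chst8: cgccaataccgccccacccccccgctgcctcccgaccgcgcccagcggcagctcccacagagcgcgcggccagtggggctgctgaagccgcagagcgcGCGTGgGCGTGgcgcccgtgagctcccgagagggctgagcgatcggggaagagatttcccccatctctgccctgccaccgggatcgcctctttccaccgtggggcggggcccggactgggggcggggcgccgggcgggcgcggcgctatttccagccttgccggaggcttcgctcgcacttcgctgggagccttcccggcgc
Ror1: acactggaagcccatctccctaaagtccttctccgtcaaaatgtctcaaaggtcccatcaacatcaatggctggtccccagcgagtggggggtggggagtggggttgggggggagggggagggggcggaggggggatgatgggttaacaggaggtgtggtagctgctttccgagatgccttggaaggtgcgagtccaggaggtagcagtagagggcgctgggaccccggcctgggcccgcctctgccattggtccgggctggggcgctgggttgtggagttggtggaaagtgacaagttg
The *Chst8* window held GCGTG 2 times on the strand shown, starting 152 and 146 bases before the start site, and 0 times on the other strand, where it reads CACGC. The *Ror1* window held it on neither strand. Of 32851 mouse promoter windows of the same length, 32.4% held at least 1 GCGTG on either strand and 11.1% held 2 or more. The longer motif TNGCGTG, which contains GCGTG and was searched after the values were seen, was in neither window and in 5.07% of all windows. The *Chst8* window was 75% G and C and the *Ror1* window 62.3%. A match is a run of letters and was not tested for binding here.

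The wild-type arrays carried the signal of ligand, and the cell type markers were mixed. *Cyp1a1*, the best known AHR target, was at 9.73 ± 0.11 (SD, n = 3) on the naive wild-type arrays and went to 13.02 ± 0.08 under TCDD and 13.43 ± 0.05 under BaP. Of 12 hepatocyte markers, 8 lay above the median signal, with *Alb* and *Afp* among the brightest and *Fga* among the dimmest (group means of 2.49 to 2.80). So did 5 of 8 fibroblast markers, with *Dcn* the brightest and *Postn* the dimmest, and 1 of 7 endothelial markers. Of 7 macrophage markers 4 did, with *Csf1r* the brightest and *Ptprc*, which marks all blood leukocytes, the dimmest at percentile 8.41 of mean signal. The median percentile was 62.6 for hepatocyte, 72.4 for fibroblast, 51.7 for macrophage and 19.7 for endothelial markers. Markers were read at their brightest probe set but set against the median of all probe sets. The share of all genes above that median is not given, so the counts name no cell type. On 3 *c*35 arrays *Cyp1a1* and *Tiparp*, another AHR target, stood apart. *Cyp1a1* was at 8.32 and 8.34 on DMSO replicates 1 and 2 and at 8.32 on BaP replicate 3, against 4.87 to 6.23 on the other 6 *c*35 arrays. *Nqo1*, also a target, was at 8.97, 8.90 and 8.95 on the 3 arrays, within the 8.68 to 9.07 of the other 6. Whether these 3 arrays carry the right labels was not tested, and every ligand difference in *c*35 cells depends on it. The *c*35 and line differences of *Chst8* and *Ror1* and the calls of their lists are also given without these 3. The signal at the 3′ end of *Actb* minus that at its 5′ end, a sign of RNA and labelling quality, ran from 0.730 to 1.38 on wild-type arrays and from 0.296 to 0.529 on *c*35 arrays, but overlapped between the ligand groups of each line.

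In wild-type cells *Chst8* (probe set 1428977_at) was lower with either ligand. The 3 naive arrays gave log2 signals of 6.71, 6.66 and 6.66. With TCDD they were 5.96, 5.96 and 5.89, and with BaP 5.97, 5.39 and 5.42. All 6 ligand arrays lay below all 3 naive arrays, as they did at 7.48% of all probe sets with TCDD and at 10.8% with BaP. The group means were 6.68 ± 0.03 (SD, n = 3), 5.94 ± 0.04 and 5.59 ± 0.32, so that the mean was 1.67-fold lower with TCDD (log2 difference -0.74) and 2.12-fold lower with BaP (-1.08). BaP replicate 1, at 5.97, lay with the TCDD arrays, the ligand groups overlapped, and without that array the BaP difference was -1.27. Whether fewer cells carried the transcript or each cell carried less of it cannot be told apart in bulk RNA.

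*Ror1* was also lower with both ligands in wild-type cells, and the 3 groups did not overlap. Its brightest probe set, 1429313_at, gave 8.70, 8.58 and 8.64 in naive cells. It gave 8.19, 8.26 and 8.35 with TCDD and 7.30, 7.44 and 7.37 with BaP. Every TCDD array lay between the naive and the BaP arrays, and at 11.2% of all probe sets the BaP arrays lay below the TCDD arrays. The group means of *Ror1* were 8.64 ± 0.06 (SD, n = 3), 8.27 ± 0.08 and 7.37 ± 0.07. The mean was 1.30-fold lower with TCDD (log2 difference -0.37) and 2.41-fold lower with BaP (-1.27).

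**Figure D1:**
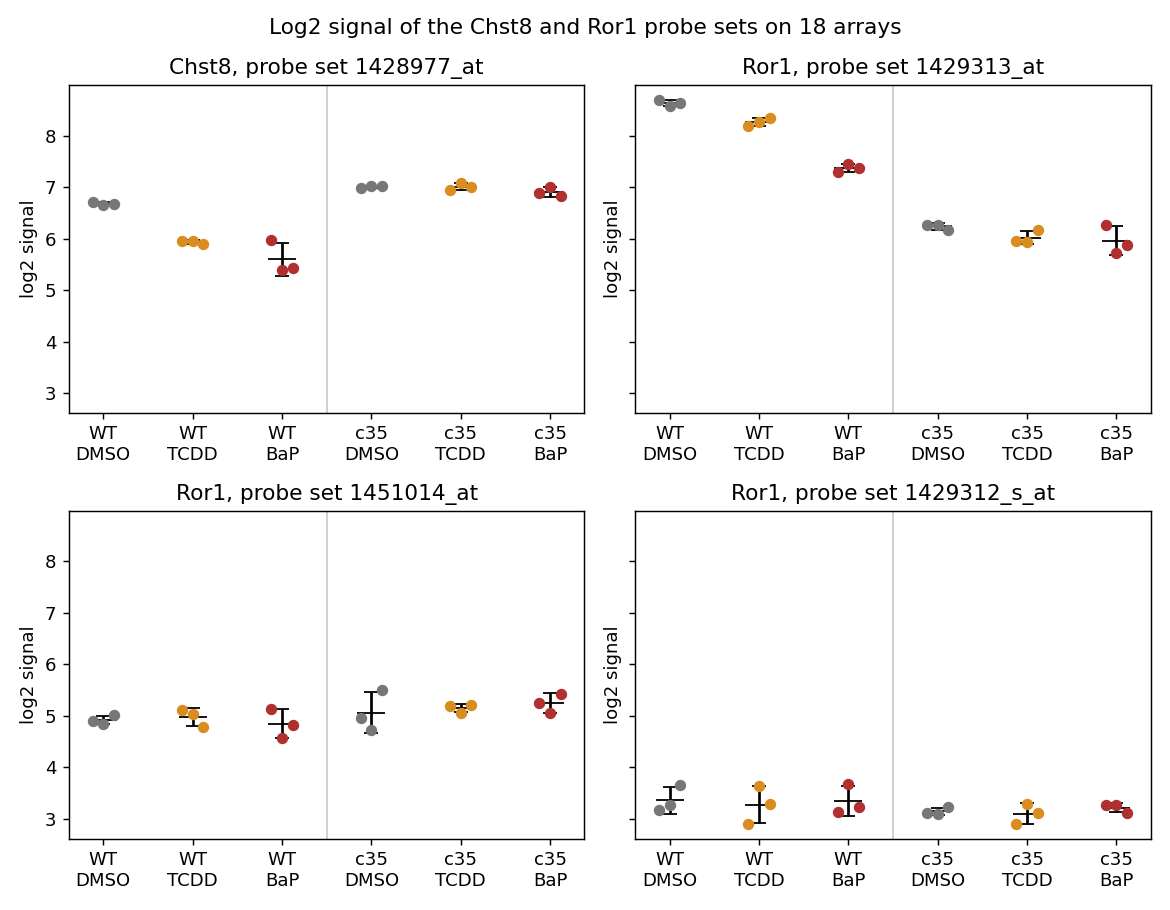
Log2 signal (y axis) of the *Chst8* probe set and of each of the 3 *Ror1* probe sets on the 18 arrays, by cell line and treatment (x axis). Points are arrays, and black bars are the mean and SD of 3 arrays. *Chst8* is highest on the *c*35 arrays (6.83 to 7.08), *Ror1* 1429313_at is highest in naive wild-type cells (8.58 to 8.70), and the other *Ror1* probe sets are dim.

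The ligands placed the 2 genes in a different order. With TCDD, *Chst8* had the lowest log2 difference of all 18,193 genes, each represented by its brightest probe set, and *Ror1* ranked 93rd. With BaP, *Ror1* ranked 1st and *Chst8* 2nd. The genes next in order were *Gadd45a* with TCDD (-0.67) and *Palmd* with BaP (-1.07), so neither rank stands far from its neighbours. The mean with BaP was lower than that with TCDD by 0.34 on the log2 scale for *Chst8* and by 0.90 for *Ror1*. Each ligand was given at 1 dose and the doses differ, so no comparison of their strength follows. A gene was called changed in wild-type cells at a limma adjusted p below 0.05 and more than 1.5-fold. By that criterion, 0.0385% of all genes were called lower with TCDD and 0.434% with BaP. These were the contrasts that chose *Chst8* and *Ror1*, so no call is given for them, and their ranks carry no further weight.

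In *c*35 cells neither gene changed with ligand by the test. *Chst8* was at 6.98, 7.02 and 7.01 with DMSO, 6.94, 7.08 and 7.00 with TCDD, and 6.88, 7.01 and 6.83 with BaP. The 3 groups overlapped. The log2 difference of *Chst8* from DMSO was 0.00 with TCDD (95% interval -0.23 to 0.23, limma adjusted p = 0.9997) and -0.10 with BaP (-0.33 to 0.13, adjusted p = 0.9998). These intervals use a spread pooled over all 6 groups. For *Chst8* the SD was 0.32 in wild-type cells with BaP. In *c*35 cells it was 0.02 with DMSO, 0.07 with TCDD and 0.09 with BaP. *Ror1* was at 6.27, 6.27 and 6.16 with DMSO, 5.96, 5.94 and 6.17 with TCDD, and 6.27, 5.72 and 5.89 with BaP. Most ligand arrays lay below the naive arrays, but the groups overlapped. The log2 difference of *Ror1* was -0.22 with TCDD (95% interval -0.44 to 0.01, adjusted p = 0.962) and -0.28 with BaP (-0.50 to -0.05, adjusted p = 0.9998). The unadjusted p was 0.0595 and 0.0174, respectively, from limma. The BaP interval lay below 0 and the TCDD interval held 0.

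The criterion for ligands in *c*35 cells set no minimum change and an adjusted p below 0.1, and it called 0.0% of the 45037 probe sets with either ligand. By limma, 2244 probe sets with TCDD and 1827 with BaP had an unadjusted p below 0.05, and no second tool was run. Without the 3 *c*35 arrays of high *Cyp1a1*, which leaves a single DMSO array that is assumed to vary like the other groups, the log2 difference was -0.01 with TCDD and -0.07 with BaP for *Chst8*. It was -0.14 with TCDD and -0.17 with BaP for *Ror1*. None of these passed the test (adjusted p of 0.99996 to 0.99997, limma), while 1 probe set of another transcript did with each ligand.

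The difference in ligand response, wild-type minus *c*35, was -0.74 with TCDD and -0.98 with BaP for *Chst8*. For *Ror1* it was -0.16 with TCDD and -0.99 with BaP. The *Ror1* difference with BaP was thus close in size to that of *Chst8*, although naive *Ror1* was at 8.64 in wild-type and 6.24 in *c*35 cells. On the *c*35 arrays *Ror1* ran from 5.72 to 6.27, near the median probe set at 5.66. Small differences at low signal are compressed by the remaining background, and the part of this in the *Ror1* differences was not tested. Among all genes, the TCDD response of 0.28% and the BaP response of 1.34% differed between the lines by an adjusted p below 0.05 and more than 1.5-fold. The values of *Chst8* and *Ror1* use the wild-type contrasts that chose the genes and have no test.

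**Figure D2:**
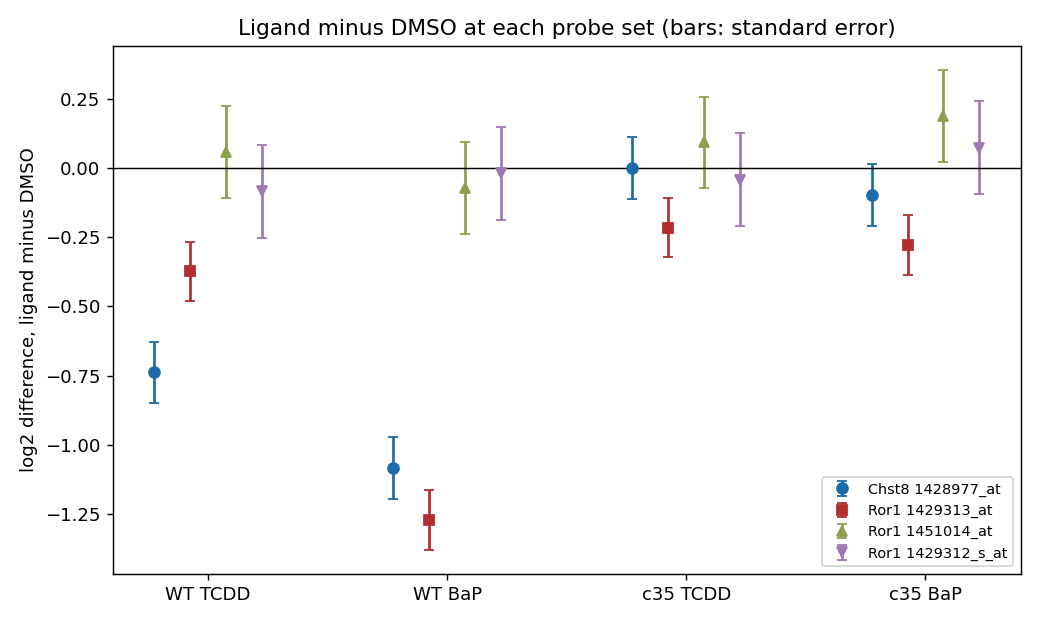
Ligand minus DMSO in log2 units (y axis) for TCDD and BaP in each line (x axis) at the *Chst8* probe set and the 3 *Ror1* probe sets. Symbols are estimates of the linear model, each from 3 arrays against 3, with a standard error that pools the spread of all 6 groups. At *Chst8* and *Ror1* 1429313_at the estimates run from -0.37 to -1.27 in wild-type cells and from 0.00 to -0.28 in *c*35 cells.

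Over the 3 treatments *Chst8* was lower and *Ror1* higher in wild-type cells than in *c*35 cells. The wild-type mean holds the 6 ligand arrays on which both genes were chosen to be low, so these values are a description without a test. Over the 3 treatments, *Chst8* ran from 5.39 to 6.71 on the 9 wild-type arrays (median 5.96) and from 6.83 to 7.08 on the 9 *c*35 arrays (median 7.00). All wild-type arrays lay below all *c*35 arrays, which held for 11.2% of all probe sets. The mean of the 3 wild-type groups was 0.91 lower on the log2 scale than that of the 3 *c*35 groups (-0.91, standard error 0.06), which is 1.87-fold, against -0.33 between the naive groups. *Ror1* ran from 7.30 to 8.70 on wild-type arrays (median 8.26) and from 5.72 to 6.27 on *c*35 arrays (median 6.16). All wild-type arrays lay above all *c*35 arrays, which held for 12.7% of all probe sets, and the mean was higher by 2.02 (standard error 0.06), which is 4.06-fold. Without the 3 *c*35 arrays of high *Cyp1a1* the differences were -0.92 and 2.03. By the criterion of an adjusted p below 0.05 and more than 1.5-fold, 6.07% of all probe sets were called lower and 8.29% higher in wild-type cells. A difference between the lines was therefore common among all probe sets.

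Between the naive lines, *Chst8* was lower in wild-type cells (log2 difference -0.33), and *Ror1* was higher by 2.40, or 5.29-fold. The groups overlapped for neither gene, and of all probe sets 21.7% lay wholly lower and 22.1% wholly higher in naive wild-type cells. The naive arrays were part of the contrasts that chose the genes, so this difference has no test. With that sign of *Actb* quality added to the model, the difference over all 3 treatments was -1.12 for *Chst8* and 2.10 for *Ror1*, and the naive difference was -0.54 and 2.48. Of 12 hepatocyte markers, *Alb* was higher (2.37) and *Fgb* lower (-1.03) in wild-type cells over the 3 treatments, where 8.05% of all genes were called higher and 6.26% lower. Of 7 macrophage markers, 3 were lower in wild-type cells (*Cd68*, *Csf1r* and *Cd14*), and the mean log2 signal of all 7 ran from 6.32 to 6.51 on wild-type and from 6.83 to 6.91 on *c*35 arrays. Of 8 fibroblast markers, *Pdgfra* and *Pdgfrb* were higher and *Col3a1* was lower in wild-type cells, and their mean ran from 7.95 to 8.22 and from 7.81 to 7.94. The part of these in the line differences was not tested.

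From highest to lowest, the group means of *Chst8* ran from naive *c*35 cells (7.01 ± 0.02) through *c*35 with TCDD (7.01 ± 0.07) and *c*35 with BaP (6.91 ± 0.09) to naive wild-type cells, wild-type with TCDD and wild-type with BaP. Neighbours in this order overlapped among the *c*35 groups and between the wild-type ligand groups. The means of *Ror1* ran from naive wild-type through wild-type with TCDD and with BaP to naive *c*35 cells (6.24 ± 0.06, SD, n = 3), *c*35 with TCDD (6.02 ± 0.13) and *c*35 with BaP (5.96 ± 0.28). For *Ror1* only the *c*35 groups overlapped their neighbours. The lowest wild-type group, BaP at 7.37, was still above the naive *c*35 cells.

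The other *Ror1* probe sets did not follow the brightest one. The brightest lay at percentile 68.5 of mean signal among all probe sets and the *Chst8* probe set at 62.04, whereas *Ror1* 1451014_at lay at 39.5 and *Ror1* 1429312_s_at at 12.03. In naive, TCDD and BaP wild-type cells the means were 4.92, 4.98 and 4.85 for *Ror1* 1451014_at and 3.36, 3.27 and 3.34 for *Ror1* 1429312_s_at. Both were dim and all their ligand groups overlapped. Over the 3 treatments the difference between the lines was -0.24 for 1451014_at, which is under 1.5-fold and opposite in sign to that of the brightest probe set. It was 0.17 for 1429312_s_at. The mean of the 3 *Ror1* probe sets put the difference with BaP in wild-type cells at -0.45, that with TCDD at -0.13 and that between the lines at 0.65. The statements on *Ror1* thus rest on 1 probe set. *Chst8* had no second probe set.

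The closest relatives of the 2 genes were dim in every group. *Chst9*, which encodes the other enzyme that sulfates terminal N-acetylgalactosamine, had a highest group mean of 2.68 and lay at percentile 3.65 of signal. *Ror2*, the second receptor of the ROR family, had group means of 4.30 to 4.59 and lay at percentile 29.4. Neither was called with a ligand or between the lines. Signals of different probe sets are not on 1 scale, so these percentiles place each gene among all probe sets and do not rank one transcript against another.

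None of the other measured genes of glycan sulfation was called with either ligand. The list held sulfotransferases, sulfatases and the enzymes and transporters that make and move the sulfate donor, and 36 of its 41 genes were measured. In wild-type cells 0 of the 36 passed the test in either direction, where TCDD changed 0.379% and BaP 1.32% of all genes. Neither count stands apart from all genes. The median log2 difference of the list was -0.05 with TCDD and 0.04 with BaP, and that of all genes was 0.01 and 0.00. The lowest with TCDD was *Hs3st1*, a heparan sulfate sulfotransferase, at -0.31. The lowest with BaP was *Papss2*, which makes the sulfate donor, at -0.45 (adjusted p = 0.0317, limma), which was under 1.5-fold.

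Between the lines, 2 of the 36 sulfation genes were higher and 1 was lower in wild-type cells over the 3 treatments, against 8.05% and 6.26% of all genes. *Sulf1*, an extracellular sulfatase that trims heparan sulfate, was higher by 2.33 (standard error 0.05, adjusted p = 6.64e-19), with naive means of 8.48 ± 0.12 (SD, n = 3) and 6.14 ± 0.08. *Papss2* was higher by 1.65 and *Chst15*, which sulfates chondroitin sulfate, was lower (-0.64). Among naive cells *Sulf1*, *Papss2* and *Hs3st1* (0.80) were higher and none was lower, against 7.52% and 6.52% of all genes. In *c*35 cells 0 of the 36 passed the test with a ligand, where 0.0% of all probe sets did, so that count says nothing of the list. Other genes build or carry the glycan on which CHST8 acts, among them the glycoprotein hormone subunits. Of these, 7 were measured and 0 were called in any of these comparisons. Against the shares of all genes, 0 of 7 says little of them. Without the 3 *c*35 arrays of high *Cyp1a1*, 1 of these 7 was called between the naive lines, lower in wild-type cells, and 0 of the 36 and 0 of the 7 were called with a ligand in *c*35 cells. The sulfation list then gave 3 calls over the 3 treatments and 4 between the naive lines.

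Among the genes of the WNT5A to ROR pathway, 1 was called with a ligand in wild-type cells. The list ran from ligands and Frizzled receptors to planar polarity proteins and the Dishevelled, formin and kinase genes below them, and 44 of its 45 genes were measured. *Wnt5a* itself, the ligand of ROR1, was dim, with group means of 4.01 to 4.47. With TCDD 0 of 44 were called, where 0.379% of all genes were. With BaP 1 of 44 was called, where 1.32% of all genes were, so neither count stands apart from all genes. The one was *Fzd8*, which encodes a Frizzled receptor and rose from 7.48 ± 0.08 (SD, n = 3) to 8.06 ± 0.03 (log2 difference 0.59, standard error 0.10, limma adjusted p = 0.000886). The *Fzd8* difference fell just under 1.5-fold without BaP replicate 1 (0.58) or 3 (0.57) or wild-type DMSO replicate 2 (0.54). The median difference of the list was -0.01 with either ligand. The lowest with TCDD was *Wnt5a*, at -0.43 (adjusted p = 0.232, limma). The lowest with BaP was *Fzd1*, at -0.49 (adjusted p = 0.00404, limma), which was under 1.5-fold. With TCDD *Fzd1* was at -0.37 (adjusted p = 0.0892, limma).

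Over the 3 treatments, 8 of the 44 genes were higher and 2 were lower in wild-type cells, against 8.05% and 6.26% of all genes. The Frizzled receptor gene *Fzd1* was higher by 3.19 (standard error 0.06, adjusted p = 3.79e-20), with naive means of 10.72 ± 0.07 and 7.20 ± 0.08. *Prickle1*, a planar polarity gene, was higher by 1.96 and *Fzd4* by 1.35. These sizes depend on the processing. Over the alternative settings the lowest differences were 1.84 for *Fzd1*, 0.64 for *Prickle1* and 0.69 for *Fzd4*. The other genes called higher were *Fzd6*, *Fzd7*, *Fzd8*, *Daam1*, which encodes a formin, and *Kif26b*, which encodes a kinesin degraded in response to WNT5A. The Frizzled genes *Fzd2*, *Fzd3*, *Fzd5*, *Fzd9* and *Fzd10* were not called. *Wnt5b* and the ubiquitin ligase gene *Siah2* were lower. The median of the list was 0.02, and that of all genes was -0.03. The counts among naive cells were the same, 8 higher and 2 lower, against 7.52% and 6.52% of all genes. In *c*35 cells 0 of 44 passed the test with a ligand, where 0.0% of all probe sets did. Without the 3 *c*35 arrays of high *Cyp1a1* the list gave 10 calls over the 3 treatments, 9 between the naive lines and 0 with a ligand in *c*35 cells.

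Of 12 measured genes whose products are known to bind or act with ROR1 in human cancer cells, 1 rose with BaP and 0 were called with TCDD in wild-type cells, against 1.32% and 0.379% of all genes. The one was *Met*, the receptor of hepatocyte growth factor, which went from 11.65 ± 0.11 (SD, n = 3) to 12.35 ± 0.05 (log2 difference 0.70, standard error 0.09, limma adjusted p = 4.4e-05). Over the 3 treatments *Cavin3*, a coat protein gene of caveolae, and the growth factor receptor gene *Egfr* were lower in wild-type cells (-1.05 and -0.59), and none was higher, against 6.26% lower and 8.05% higher of all genes. The *Egfr* difference was only just over 1.5-fold and was under it without any of 8 single arrays, between -0.58 and -0.56. It was also under it without the 3 *c*35 arrays of high *Cyp1a1* (-0.57).

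**Figure D3:**
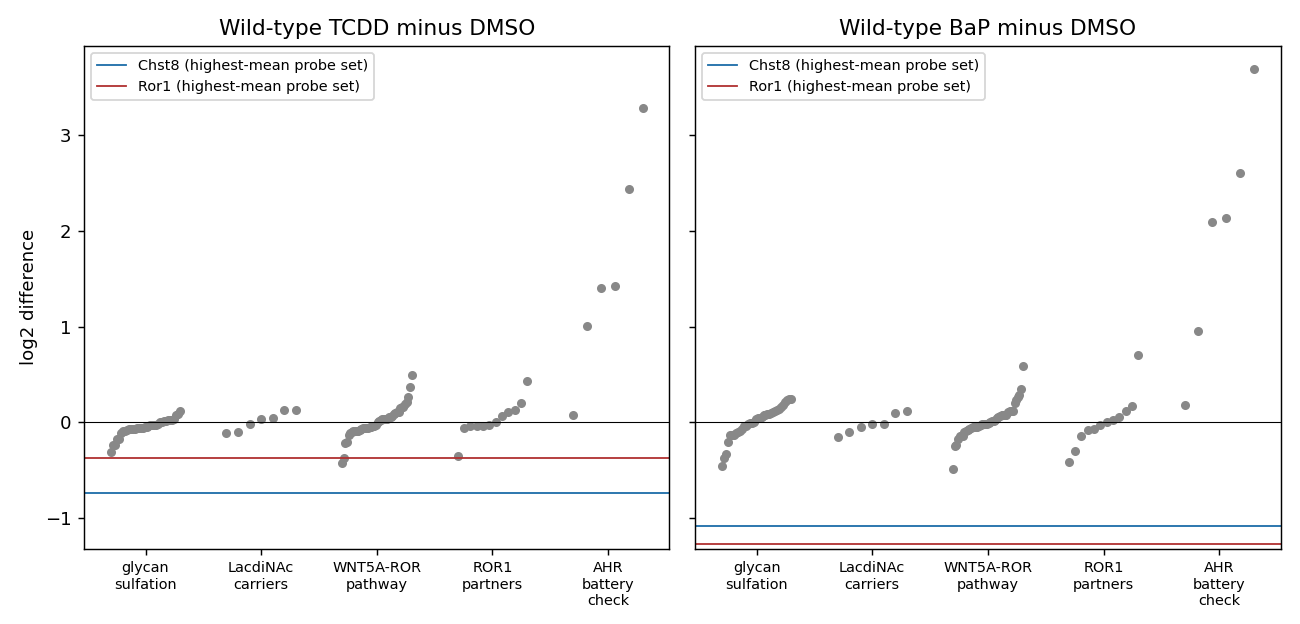
Ligand minus DMSO in log2 units (y axis) in wild-type cells for the measured genes of 5 lists (x axis), TCDD on the left and BaP on the right. Grey points are genes, sorted within a list, and the horizontal lines are *Chst8* and *Ror1*. With BaP both lines (-1.08 and -1.27) lie below every listed gene, of which the lowest is at -0.49, and with TCDD the *Ror1* line (-0.37) lies among the lowest listed genes. The AHR targets at the right serve as a check that ligand acted.

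The 3 nearest measured genes on each side of either gene on its chromosome were read, 12 in all. With TCDD or BaP 0 of 12 were called in either line, where 0.379% and 1.32% of all genes were called in wild-type cells and 0.0% of probe sets in *c*35 cells, so the count says little of these 12. *Kctd15*, which encodes a repressor of the transcription factor AP-2 and lies 19.0 kb from *Chst8*, had a log2 difference of -0.41 with BaP in wild-type cells (adjusted p = 0.178, limma) and -0.13 with TCDD. *Pepd*, 99.7 kb away on the other side, had -0.20 with BaP. The liver transcription factor gene *Cebpa*, 307 kb away, had 0.04. Near *Ror1*, *Ube2u* at 34.1 kb had -0.11 and *Pgm1* at 108 kb had -0.16 with BaP. Between the lines 3 of the 12 were called, *Kctd15* (0.93), *Efcab7* (0.62) and *Cachd1* (0.59), all higher in wild-type cells, against 14.3% of all genes in either direction. The *Kctd15* difference was opposite in sign to that of *Chst8* beside it.

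**Figure D4:**
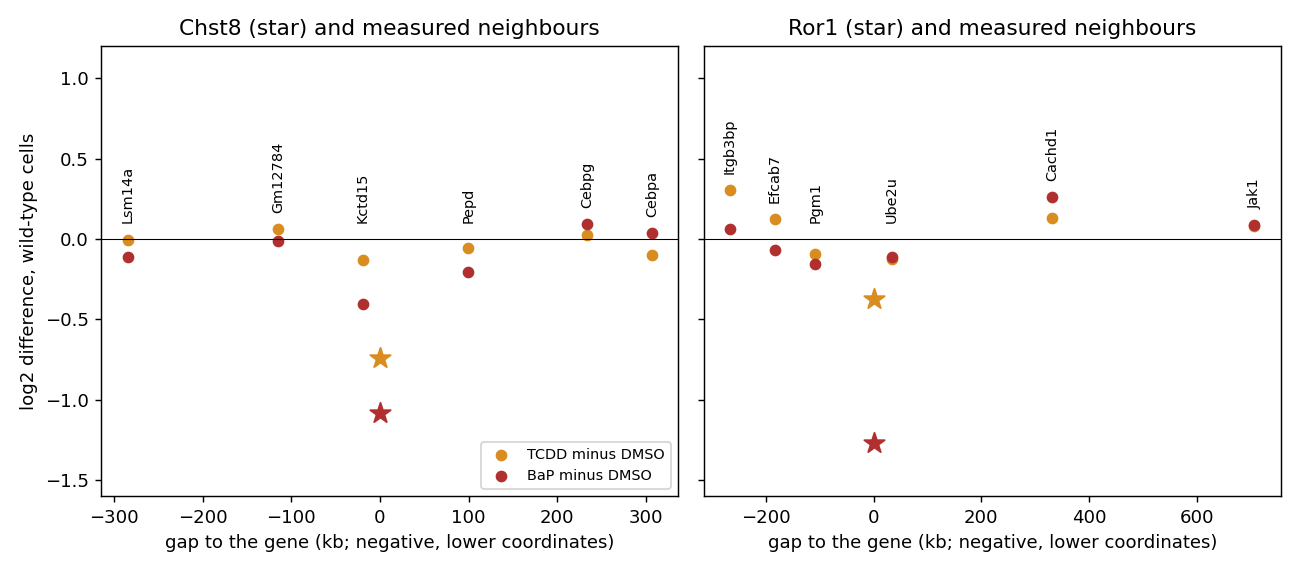
Ligand minus DMSO in log2 units (y axis) in wild-type cells for *Chst8* and *Ror1* (stars) and for the 3 nearest measured genes on each side (points), by the gap to the gene in kb (x axis, negative towards lower coordinates). TCDD is in orange and BaP in red. The 12 neighbours lie between -0.41 and 0.30, and *Chst8* and *Ror1* reach -1.08 and -1.27.

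Over all 18 arrays the 2 genes did not share a pattern. Pearson's r between *Chst8* and *Ror1* was -0.57 across the 18 arrays, but 0.83 across the 9 wild-type arrays and 0.02 across the 9 *c*35 arrays. The arrays form clusters by line and ligand, so each r describes these groups. Both genes were chosen for lower signal with ligand on the wild-type arrays, which by itself gives a high r across them. The genes whose signal across the 18 arrays was most like that of *Chst8* were *Arhgef39* (r = 0.967), *Glis2* (0.962), *Prmt3* (0.953), *Pdk1* (0.949) and *Prmt7* (0.948). The most opposed were *Nqo1* (-0.967), a quinone reductase gene of the AHR battery, and the interferon-induced gene *Usp18* (-0.966).

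For *Ror1* the most similar genes across the 18 arrays were *Pds5b* (r = 0.992), *Sorbs2* (0.986), *Greb1l* (0.984), *Pdlim5* (0.983) and *Pld1* (0.983), and the most opposed were *Zbtb42* (-0.986) and *Fosl1* (-0.981). Within the 9 wild-type arrays the genes nearest to *Chst8* were led by *Cldn2* (0.988), a tight junction gene, and *Ppp1r3c* (0.985), a glycogen-targeting phosphatase subunit. Their log2 differences with BaP were -0.56 and -0.86. Those nearest to *Ror1* were led by *Pspc1* (0.989) and *Pid1* (0.988), and *Sorbs2* (0.987) was near it in both sets of arrays. The most opposed to *Ror1* in wild-type cells was the cytokine gene *Lif* (-0.992), with a difference of 1.02 with BaP and 0.33 with TCDD.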

How the data were processed

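Total RNA of each of the 18 cultures was hybridized to an Affymetrix mouse genome expression array. The authors deposited log2 signals, made per the submitters' processing notes by robust multiarray averaging (RMA), which corrects background, normalizes between arrays and summarizes each probe set. No source used here gives its version. The values were used as deposited, so small differences at low signal are compressed by the remaining background. Of 45101 probe sets, 64 controls were left out. Of the 45037 tested, 34945 had 1 symbol in the platform annotation, 932 had several and 9160 had none. A gene was represented by its probe set of highest mean. No arrays were identical.

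One mean per group was fitted in R 4.3.3 with the package limma, version 3.58.1, with eBayes, an intensity trend and Benjamini-Hochberg adjustment over all probe sets within each comparison. The 2 genes have no test in comparisons that use the wild-type arrays on which they were chosen. The fit was tested on simulated data (seed 11). Figures were drawn with matplotlib 3.10.9. The p-values rest on the spread between cultures within groups, pooled over all 6 groups and moderated by eBayes. With 3 cultures per group, the precision is limited.

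The genes and lists were chosen with earlier results of these data known. The lists come from textbook knowledge. Named were both genes, at most 3 called list members of largest change per comparison, the 5 most similar and 2 most opposed genes, 3 neighbours on each side, *Cyp1a1*, *Nqo1*, *Chst9* and *Ror2*. Other list members, markers and ranked genes named were picked after their values were seen. Names and promoters came from RefSeq tables of GRCm38.p6, in which both genes matched.

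The alternatives were no trend, array weights, quantile normalization, median centring, dim probe sets left out, the replicate number as a block, the *Actb* 3′ minus 5′ covariate, only the arrays compared, the probe sets of a gene averaged, and each array left out. Leaving out the 3 *c*35 arrays of high *Cyp1a1*, the longer motif and r across *c*35 arrays were added after seeing the data.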

Additional observations from a re-analysis of the deposited data

Results flagged for a closer look

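By the test of the difference itself, 1 pathway gene and 1 ROR1 partner had a ligand response that differed between the lines. The BaP response of *Fzd8*, wild-type minus *c*35, was 0.77 (standard error 0.14, limma adjusted p = 0.00445). In wild-type cells its mean log2 signal rose from 7.48 to 8.06, and in *c*35 cells it was 6.75 ± 0.16 (SD, n = 3) with DMSO and 6.57 ± 0.17 with BaP. The response of *Met* differed by 0.70 with TCDD (standard error 0.13, adjusted p = 0.0146) and by 0.88 with BaP (adjusted p = 0.000472). *Met* went from 11.65 to 12.08 and 12.35 in wild-type cells, and from 11.99 ± 0.21 to 11.73 ± 0.03 and 11.81 ± 0.15 in *c*35 cells. Of all genes, 0.28% differed with TCDD and 1.34% with BaP by the same criterion. Without the 3 *c*35 arrays of high *Cyp1a1*, 2 of which are DMSO arrays, the difference was 0.64 for *Fzd8* (adjusted p = 0.185), 0.46 for *Met* with TCDD (adjusted p = 0.563) and 0.71 for *Met* with BaP (adjusted p = 0.0211), so that only the last still passed. The TCDD difference of *Met* also missed the threshold without any of *c*35 DMSO replicates 1 and 2, *c*35 TCDD replicate 2, wild-type DMSO replicate 3 and wild-type TCDD replicates 1 and 3 (0.63 to 0.69, adjusted p of 0.0504 to 0.0772). The AHR targets *Cyp1a1* (4.63 with TCDD and 4.27 with BaP), *Nqo1* (1.35 and 2.08), *Tiparp* (3.15 and 2.97) and *Aldh3a1* (1.42 and 2.09), *Cyp1b1* with TCDD (1.49) and the hepatocyte marker *Rbp4* with BaP (0.75) also had a response that differed between the lines, each higher in wild-type cells (limma adjusted p of 3.56e-08 to 0.0490). *Nqo1* had the lowest of these p-values with BaP and *Cyp1a1* the highest with TCDD. Some of these differences included a lower signal with ligand in *c*35 cells. There the TCDD difference was -1.35 for *Cyp1a1*, -0.71 for *Tiparp* and -0.49 for *Cyp1b1*. It was 0.08 for *Nqo1* and -0.01 for *Aldh3a1*. In wild-type cells the TCDD difference was 3.28 for *Cyp1a1* and 2.44 for *Tiparp*. How far the target differences depend on the 3 *c*35 arrays of high *Cyp1a1* was not tested.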

How the results depend on the processing

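The labels do not say whether replicate numbers pair the samples. Deviations from the group means correlated at -0.26 to 0.22 over 45 pairs of arrays with the same number. Over 90 other pairs they correlated at -0.21 to 0.21. These ranges show no pairing and cannot exclude one. With the replicate number as a block, the line differences were -0.91 for *Chst8* and 2.02 for *Ror1* (1429313_at). The line differences of both kept their direction in every alternative run, with leave-one-out ranges of -0.97 to -0.87 and 1.98 to 2.07, and neither gene was called with ligand in *c*35 cells in any. "Only the arrays compared" gives no separate value for the line difference. The *Chst8* difference with TCDD in *c*35 cells changed sign around 0 with array weights (0.0056), quantile normalization (0.0108), median centring (0.00838) and the *Actb* covariate (0.0176), and ran from -0.0374 to 0.0325 as single arrays were left out. The naive line difference of *Chst8* moved to -0.38 (quantile normalization), -0.36 (median centring) and -0.54 (*Actb* covariate), and that of *Ror1* to 2.48 (*Actb* covariate) and 2.48 (without the 3 *c*35 arrays of high *Cyp1a1*). The mean of all probe sets put *Ror1* at -0.13 with TCDD, -0.45 with BaP and 0.83 between naive lines, since the other 2 probe sets were flat. It also gave 0 calls in the WNT5A to ROR list with BaP and 6 between naive lines. The BaP call of *Fzd8* was lost with it (0.54) and without single arrays (0 to 1 calls). At *Ror1* 1451014_at the *c*35 differences were -0.35 with TCDD and -0.34 with BaP without the 3 arrays, and from -0.0764 to 0.311 with TCDD as single arrays were left out, below 0 without DMSO replicate 2. At *Ror1* 1429312_s_at the TCDD difference ran from -0.140 to 0.0553, above 0 without TCDD replicate 1. The r of *Chst8* with *Ror1* was 0.83 over wild-type arrays against -0.57 over all. *Papss2* (0.51 with the mean of all probe sets) and *Egfr* (-0.11 with it, -0.45 with the *Actb* covariate and -0.57 without the 3 arrays) fell under 1.5-fold between the lines. Apart from the *Ror1* probe sets, the causes were not tested.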

Other observations

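On the 3 *c*35 arrays of high *Cyp1a1*, *Chst8* stayed within or next to the range of the other *c*35 arrays, 6.88 to 7.08. The DMSO replicates 1 and 2 gave 6.98 and 7.02 and BaP replicate 3 gave 6.83, where *Cyp1a1* was 8.32, 8.34 and 8.32. On DMSO replicate 3, where *Cyp1a1* was 4.87, *Chst8* was 7.01. *Ror1* (1429313_at) was 6.27, 6.27 and 5.89 on those 3 arrays and 6.16 on DMSO replicate 3. *Tiparp*, an AHR target that encodes a poly(ADP-ribose) polymerase, was also higher on the 3 arrays, at 10.36, 10.30 and 10.42, than on the other *c*35 arrays, at 9.13 to 9.38.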
